A study of Mus musculus with 4 samples.

Results

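The 9 genes described here encode transcription factors of the olfactory placode and of the forebrain: *Sox2*, *Sox3*, *Lhx2*, *Six3*, *Emx2*, *Otx2*, *Sp8*, *Meis1* and *Rax*. They were chosen by name, with earlier results of these data known, as factors that could help tell olfactory tissue from brain tissue in a facial dissection, and 9 of 9 were found among the 13577 genes of the deposited RNA-Seq table. Bulk RNA-Seq had been performed on nasal process (NP) tissues of mouse embryos at E11.5, and 4 libraries were analyzed, 2 titled control and 2 titled ca-*Acvr1* mutant, here called ca-*Acvr1(A11)* or the mutant pair. By the study's methods, control embryos carry *P0-Cre* without the transgene, and mutant embryos carry *P0-Cre* and 1 copy of the A11 line of a floxed transgene that encodes a constitutively active form of the BMP type I receptor ACVR1. Both groups therefore share *P0-Cre*, a driver meant for the neural crest lineage, which forms the facial mesenchyme and neither the placode nor the brain. The question was how the levels of these factors compare between the groups, and which tissues the libraries hold.

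The labels disagree on the groups. The genotype entered for both libraries titled control includes the transgene, and the one entered for both libraries titled mutant is *P0-Cre* alone. Groups follow the titles here, and each direction turns round if those entries hold instead. Nothing in the labels says whether a library is 1 embryo or a pool, so that the p-values measure the spread between these 4 samples, which may be technical. The libraries held from 1956831 to 2408827 reads, and 1 read was worth from 0.415 to 0.511 CPM (counts scaled to the total of the library). Of the 54308 values, 43 in 22 genes were not whole numbers of reads, and all 36 values of the 9 factors were whole. The labelled tissue matched its markers in part: all 19 listed genes of facial mesenchyme from the cranial neural crest and all 16 listed genes of epithelium were measured, and genes used as forebrain markers were measured too, as described below.

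The olfactory placode is a thickening of head ectoderm that folds into the nasal pit and gives rise to the olfactory epithelium. It arises at the border of the anterior neural plate, next to the tissue that becomes the telencephalon and the eye, and many transcription factors are shared between these tissues. The SOXB1 proteins SOX2 and SOX3 keep neural and placodal progenitors undifferentiated, whereas SIX3, OTX2 and RAX act in the anterior neural plate and eye field, LHX2 and EMX2 act in the cerebral cortex and the olfactory epithelium, SP8 is a zinc-finger factor of the telencephalon and nasal ectoderm, and MEIS1 is a cofactor of PBX and HOX proteins found in many tissues.

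The sequences just upstream of the annotated starts of *Six3*, *Otx2* and *Sp8* are shown since these were the 3 genes that passed the test below, and that of *Sox2* since it was the gene with the highest level. They are the 250 bases before the RefSeq start in GRCm38.p6, read 5′ to 3′ on the strand of the gene, and the most upstream start was taken where a gene has several. The *Six3* and *Otx2* windows lie inside the spans that GENCODE gives for these genes, which start further upstream. Capitals mark every match, on either strand, to TAATTA (a homeodomain core), ACAAT or ACAAAG (SOX cores), GGCGCC (a GC-rich SMAD core), CCAAT (the CCAAT box) and TATAAA (the TATA box), and no 2 matches overlap in these 4 windows.
Six3, chr17:85620584-85620833, plus strand: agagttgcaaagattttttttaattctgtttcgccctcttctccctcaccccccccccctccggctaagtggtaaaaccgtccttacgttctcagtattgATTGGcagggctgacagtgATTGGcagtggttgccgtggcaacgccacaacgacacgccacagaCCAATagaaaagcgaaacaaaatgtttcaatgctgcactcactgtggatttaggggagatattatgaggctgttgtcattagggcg
Otx2, chr14:48667645-48667894, minus strand: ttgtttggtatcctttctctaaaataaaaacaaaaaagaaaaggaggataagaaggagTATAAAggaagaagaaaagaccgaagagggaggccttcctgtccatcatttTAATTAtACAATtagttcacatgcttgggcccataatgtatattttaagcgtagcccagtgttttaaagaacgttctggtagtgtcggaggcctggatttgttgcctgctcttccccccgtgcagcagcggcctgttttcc
Sp8, chr12:118846079-118846328, plus strand: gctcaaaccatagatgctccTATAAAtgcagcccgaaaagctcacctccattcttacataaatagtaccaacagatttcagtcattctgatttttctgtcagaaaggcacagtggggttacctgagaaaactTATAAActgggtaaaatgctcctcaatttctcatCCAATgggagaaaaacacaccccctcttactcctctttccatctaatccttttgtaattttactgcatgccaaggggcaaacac
Sox2, chr3:34649745-34649994, plus strand: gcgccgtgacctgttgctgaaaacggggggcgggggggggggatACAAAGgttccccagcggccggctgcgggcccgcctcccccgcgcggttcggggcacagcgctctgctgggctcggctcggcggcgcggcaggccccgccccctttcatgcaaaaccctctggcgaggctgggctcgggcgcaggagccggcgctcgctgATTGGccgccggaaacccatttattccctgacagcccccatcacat

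The *Six3* window holds CCAAT 3 times, with first bases at −150, −131 and −86 relative to the start. The *Otx2* window holds TATAAA at −192, TAATTA at −141 and ACAAT at −134, and the *Sp8* window holds TATAAA at −230 and −118 and CCAAT at −84. In the *Sox2* window ACAAAG lies at −206 and CCAAT at −46. The 4 windows differ in base composition, with 48.8%, 42.0%, 40.8% and 72.0% G or C and 10, 6, 1 and 27 CpG dinucleotides for *Six3*, *Otx2*, *Sp8* and *Sox2*, against medians of 52.4% and 6 over 32851 windows of the same length. Over all those windows CCAAT occurs in 33.85%, ACAAT in 27.66%, ACAAAG in 16.46%, TATAAA in 12.37%, GGCGCC in 9.586% and TAATTA in 4.84%. Among the 13 windows of the 7 genes matched in the RefSeq table, which include several starts of *Otx2*, *Sp8* and *Lhx2*, these motifs occur in 7, 4, 1, 2, 3 and 3. None is shared by all 4 sequences shown. A match describes letters only and is not a binding site.

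In the comparison of the groups, *Six3*, *Otx2* and *Sp8* rose in ca-*Acvr1(A11)* NP tissues, by 1.59-fold, 1.62-fold and 1.88-fold of the control mean (adjusted p = 0.0278, 0.0164 and 0.0195, limma). These 3 of 9 factors passed the threshold of 0.05 in the higher direction, against 0.305% of the 12462 genes tested, and 0 of 9 passed in the lower direction, against 0.594%, with 0 of 9 lower also at an unadjusted p under 0.05. All 9 had a log2 fold change above 0, as did 54.2% of all genes tested, and 8 of 9, the exception being *Emx2*, had both ca-*Acvr1(A11)* libraries above both control libraries, as did 21.9% of all genes. The median log2 fold change was 0.50 over the 9 factors and 0.029 over all genes tested. A fold change is on the scale of log2(CPM + 1) unless given as a ratio of means, and 8 of 9 factors had an unadjusted p under 0.05 in the higher direction, against 5.42% of all genes. The 3 calls depend on single libraries: without control replicate 2 or without ca-*Acvr1(A11)* replicate 1 none of the 9 factors was called by limma, although 4 kept an unadjusted p under 0.05 in each case, and without control replicate 1 the number was 6, in a fit where the share of all genes called higher was also larger, at 1.92%. edgeR and limma-voom on the recovered reads called 3 each, and DESeq2 called 0 with 3 at an unadjusted p under 0.05. In a bulk sample, a change in the share of a cell type and a change in the RNA per cell cannot be told apart.

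**Figure D1:**
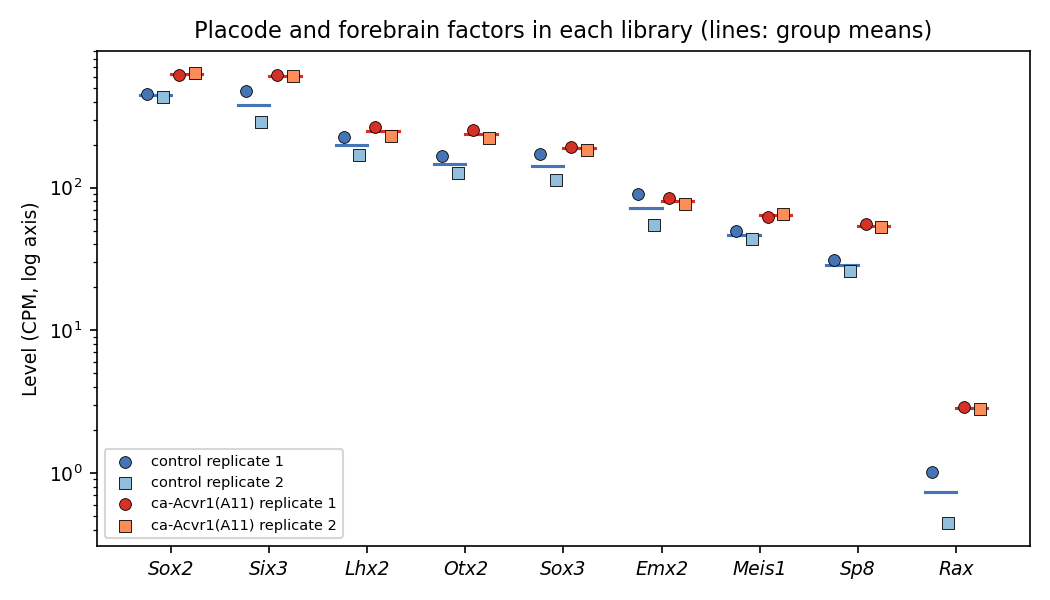
Level of each factor (CPM, log axis) in the 4 libraries, with circles for replicate 1, squares for replicate 2 and short lines for the group means. The ca-*Acvr1(A11)* points lie above both control points for 8 of 9 factors, and for *Emx2* they lie between them.

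**Figure D2:**
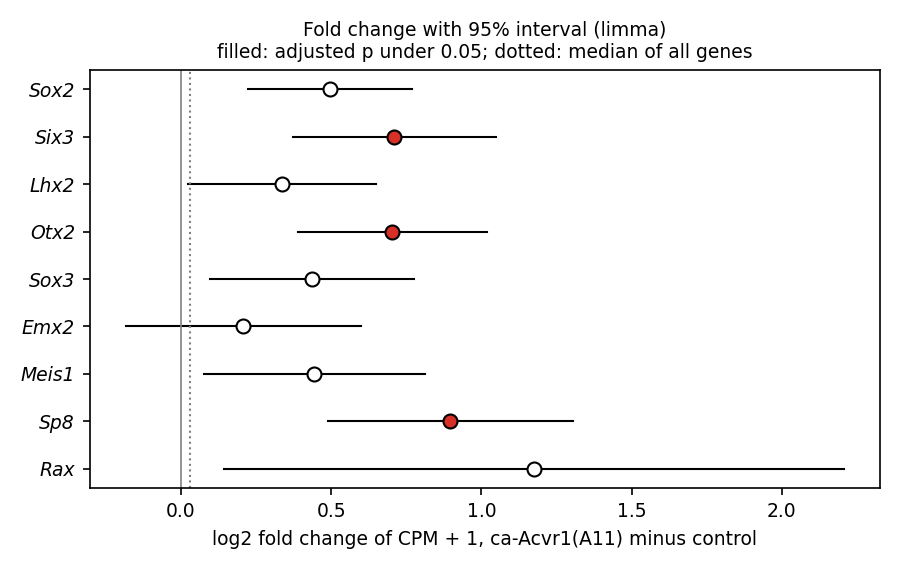
Difference of log2(CPM + 1), ca-*Acvr1(A11)* minus control, with its 95% interval from limma for each factor. Filled points passed an adjusted p of 0.05, and the dotted line is the median of all genes tested, at 0.029.

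Among the factors of the anterior neural plate and eye field, *Six3*, a homeodomain factor that restrains Wnt signaling in the anterior neural plate, was measured at 473.7 and 289.0 CPM in control replicates 1 and 2 and at 611.1 and 600.8 CPM in ca-*Acvr1(A11)* replicates 1 and 2. Control replicate 2 was the lowest library and stood further from control replicate 1, by 184.7 CPM, than control replicate 1 stood from either ca-*Acvr1(A11)* library. The group means were 381 ± 131 and 606 ± 7.25 CPM (SD, n = 2). On the log2 scale the change was 0.71 (standard error 0.16, 95% interval 0.37 to 1.05). Without control replicate 2 it was 0.35 (adjusted p = 0.372), without ca-*Acvr1(A11)* replicate 1 the adjusted p was 0.0531, and with a pseudocount of 0.1 it was 0.0539 (limma). DESeq2 did not call it either. The gene (Entrez 20473) spans chr17:85613608-85629302 on the plus strand in GENCODE's annotation of GRCm38, with 3 exons. *Six3os1*, on the opposite strand, shares 106 exon bases with it and was measured at 125, 91.9, 161 and 167 CPM in the 4 libraries (log2 fold change 0.61, standard error 0.16, adjusted p = 0.0675). Whether the counting used the strand is not given in the sources used here, so reads of the shared bases cannot be told apart.

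*Otx2*, a homeodomain factor that specifies the forebrain and midbrain, gave 167.6 and 126.5 CPM in the control pair, against 252.4 and 224.1 CPM in the mutant pair. The groups did not overlap, and the gap between them, from 167.6 to 224.1 CPM, was wider than the distance between the replicates of either group. The means were 147 ± 29.1 and 238 ± 20.0 CPM (SD, n = 2). The change was 0.70 on the log2 scale (standard error 0.15, 95% interval 0.39 to 1.02). It passed the test in 10 of the 11 alternatives that kept all libraries, DESeq2 being the exception (adjusted p = 0.153), and it did not pass without control replicate 2 (adjusted p = 0.114, limma) or without ca-*Acvr1(A11)* replicate 1 (0.170). *Otx2* (Entrez 18424) lies at chr14:48657677-48673819 on the minus strand. *Gm49154* on the same strand and *Otx2os1* on the opposite strand share 168 and 154 exon bases with it. Reads of the shared bases cannot be told apart here, as for *Six3*.

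*Rax*, a homeodomain factor of the eye field, retina and hypothalamus, was close to the limit of these libraries. It had 2 and 1 reads in the control pair, against 7 and 6 in the mutant pair, or 1.02, 0.444, 2.91 and 2.81 CPM. The ca-*Acvr1(A11)* libraries were higher, with 13 reads against 3 in all, a ratio of 4.01 per read sequenced with a 95% counting interval (exact binomial) of 1.10 to 21.9 that covers counting error only. It did not pass the test (log2 fold change 1.17, standard error 0.50, adjusted p = 0.432, limma). *Rax* (Entrez 19434) ranked 11530th by mean level among the listed genes, whereas *Six3* ranked 279th. *Raxos1*, on the opposite strand, shares 1604 exon bases with *Rax*, with the same limit on its reads.

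The SOXB1 pair had smaller log2 fold changes than *Six3* and *Otx2*, a difference that was not tested. *Sox2*, which encodes an HMG-box factor of neural, placodal and epithelial progenitors, gave 455.3 and 429.3 CPM in the control pair, against 615.7 and 633.1 CPM in the mutant pair. Its replicates lay close together in both groups, and the groups were well apart. The means were 442 ± 18.4 and 624 ± 12.4 CPM (SD, n = 2), a ratio of 1.41, and the log2 fold change of 0.50 (standard error 0.13, 95% interval 0.22 to 0.77) did not pass after adjustment (adjusted p = 0.0803, limma). Leaving out control replicate 1 brought it past the threshold (log2 fold change 0.54, adjusted p = 0.0068). *Sox2* (Entrez 20674), a gene of 1 exon at chr3:34650405-34652461 on the plus strand, lies inside *Sox2ot*, a noncoding transcript of the same strand with which it shares 0 exon bases. *Sox2ot* gave 18.9 and 13.3 CPM in the control pair, against 29.9 and 31.4 CPM in the mutant pair (log2 fold change 0.90, standard error 0.25, adjusted p = 0.0920).

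*Sox3*, the X-linked member of the pair, gave 171.2 and 112.3 CPM in the control pair, against 193.0 and 183.4 CPM in the mutant pair. The groups did not overlap, but the distance between the control libraries, 58.9 CPM, was larger than the difference of the means, 46.4 CPM. The log2 fold change was 0.44 (standard error 0.17, 95% interval 0.098 to 0.78, adjusted p = 0.336, limma). It was 0.74 without control replicate 1 (adjusted p = 0.0010) and 0.14 without control replicate 2, so that its size rested on which control library was used. *Sox3* (Entrez 20675) is a gene of 1 exon at chrX:60891366-60893430 on the minus strand.

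The factors shared by cortex and olfactory epithelium had the lowest log2 fold changes of the 9, although differences between factors were not tested. *Lhx2*, a LIM-homeodomain factor needed for the eye, the cortex and olfactory sensory neurons, gave 227.4 and 168.3 CPM in the control pair, against 264.9 and 230.7 CPM in the mutant pair. The highest control and the lowest ca-*Acvr1(A11)* library differed by little, and the means were 198 ± 41.8 and 248 ± 24.2 CPM (SD, n = 2). The log2 fold change of 0.34 (standard error 0.15, 95% interval 0.023 to 0.65) did not pass the test (adjusted p = 0.474, limma), although without control replicate 1 it was 0.55 and passed (adjusted p = 0.0193). *Emx2*, a homeodomain factor of the dorsal telencephalon, gave 89.4 and 54.6 CPM in the control pair, against 84.7 and 77.2 CPM in the mutant pair. Control replicate 1 was the highest of the 4 libraries and control replicate 2 the lowest, so the groups overlapped. The log2 fold change was 0.21 (standard error 0.19, 95% interval −0.18 to 0.60, adjusted p = 0.816, limma), and it turned to −0.14 without control replicate 2. *Lhx2* (Entrez 16870) lies at chr2:38339281-38369733 and *Emx2* (Entrez 13797) at chr19:59458372-59465357, both on the plus strand. *Emx2os*, which shares 264 exon bases with *Emx2* on the opposite strand, was between 1.78 and 4.60 CPM.

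*Sp8*, the zinc-finger factor with the largest log2 fold change among the 3 that passed, gave 31.2 and 26.2 CPM in the control pair, against 55.2 and 52.9 CPM in the mutant pair. These values rest on 61, 59, 133 and 113 reads. Both replicates of each group lay close together, and the gap between the groups was several times wider. The log2 fold change was 0.90 (standard error 0.20, 95% interval 0.49 to 1.30), and its lowest value over 4 omissions of a library was 0.77. The call was lost without control replicate 2, without ca-*Acvr1(A11)* replicate 1 and without ca-*Acvr1(A11)* replicate 2 (adjusted p = 0.0727, 0.130 and 0.0753, limma). *Sp8* (Entrez 320145) lies at chr12:118846329-118852576 on the plus strand.

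*Meis1*, whose TALE homeodomain protein binds DNA with PBX partners, gave 49.6 and 44.0 CPM in the control pair, against 62.3 and 65.5 CPM in the mutant pair. The replicates differed by less than the groups did. The log2 fold change was 0.44 (standard error 0.18, 95% interval 0.076 to 0.81) and did not pass the test (adjusted p = 0.390, limma) here or in any of the 15 alternatives. *Meis1* (Entrez 17268) lies at chr11:18879817-19018985 on the minus strand and has 12 exons in its principal transcript. *Gm37818* on the same strand and *Gm16140* on the opposite strand share 1029 and 896 exon bases with it, with the same limit on its reads.

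Since the 3′ kit gives reads near the poly(A) tail only, CPM does not grow with transcript length, and levels were compared between the factors on that scale. By mean CPM the order was *Sox2* (533), *Six3* (494), *Lhx2* (223), *Otx2* (193), *Sox3* (165), *Emx2* (76.5), *Meis1* (55.3), *Sp8* (41.4) and *Rax* (1.80). The order held in 4 of 4 libraries for each neighbouring pair except *Sox2* with *Six3* and *Otx2* with *Sox3*, which held in 3 of 4. Control replicate 1 had more *Six3* and more *Sox3* than its neighbour in that order. Summed over the 9 factors the levels were 1666 and 1251 CPM in the control pair, against 2142 and 2071 CPM in the mutant pair, a ratio of means of 1.44. *Sox2* and *Six3* together made up most of every sum, with 27.3%, 34.3%, 28.7% and 30.6% from *Sox2* and 28.4%, 23.1%, 28.5% and 29.0% from *Six3*.

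The control libraries differed from each other in the same direction for every factor. Control replicate 1 was above control replicate 2 for 9 of 9, against 49.83% of all listed genes, by ratios from 1.06 for *Sox2* to 1.64 for *Six3* and *Emx2* (2.30 for *Rax*, on 3 reads). The ca-*Acvr1(A11)* libraries lay closer together, with ratios of replicate 1 to replicate 2 from 0.951 for *Meis1* to 1.15 for *Lhx2*. Other lists divided the control libraries too: summed markers of epithelium were at 367 and 332 CPM in control replicates 1 and 2, and summed markers of cranial neural crest mesenchyme at 2567 and 3110 CPM. Their part in the spread of the factors was not tested.

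Markers of several tissues were summed by library to see which tissues moved with the factors. Counts for each list are to be read against all genes tested, of which 0.305% were called higher and 0.594% lower (limma). At an unadjusted p under 0.05, 5.42% of all genes tested were higher (limma). Among 16 epithelial genes, *Cdh1*, *Epcam* and *Perp*, which encode cell adhesion proteins of epithelia, rose (log2 fold change 0.78, 0.72 and 0.99, adjusted p = 0.0145, 0.0264 and 0.0171, limma), 0 fell, and the median was 0.51. Without ca-*Acvr1(A11)* replicate 1 none of these 3 passed (adjusted p from 0.103 to 0.203), *Cdh1* and *Perp* did not without control replicate 2 (0.0955 and 0.0870), and *Epcam* and *Perp* did not without ca-*Acvr1(A11)* replicate 2 (0.0841 and 0.0518). *Cldn6*, the third by level in this list, was at 29.6 and 32.9 CPM against 45.3 and 45.4 CPM and did not pass (adjusted p = 0.340). The epithelial sum was 332 to 367 CPM in control and 500 to 531 CPM in ca-*Acvr1(A11)* libraries, a ratio of means of 1.48. Among 19 genes of cranial neural crest mesenchyme 13 fell and 0 rose, with a median of −0.90, and their sum was 2567 to 3110 CPM in control and 1445 to 1521 CPM in ca-*Acvr1(A11)* libraries. The genes that fell included *Alx1*, *Alx4*, *Prrx1*, *Prrx2*, *Twist1*, *Twist2*, *Pax3*, *Six2*, *Col1a1*, *Col1a2*, *Col3a1* and *Pdgfra*. *Col1a2*, a collagen gene and the most abundant, fell by 1.25 on the log2 scale (adjusted p = 1.75e-06), and *Tfap2b*, the second by level, did not pass (−0.45, adjusted p = 0.152). The calls of *Alx1*, *Alx4*, *Prrx1*, *Prrx2*, *Pax3*, *Col1a2* and *Pdgfra* were kept whichever library was left out. Neither ca-*Acvr1(A11)* value of *Pdgfra* was a whole number of reads, and replacing them by the whole-read values 20 CPM higher gave a log2 fold change of −1.45 in place of −2.60.

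**Figure D3:**
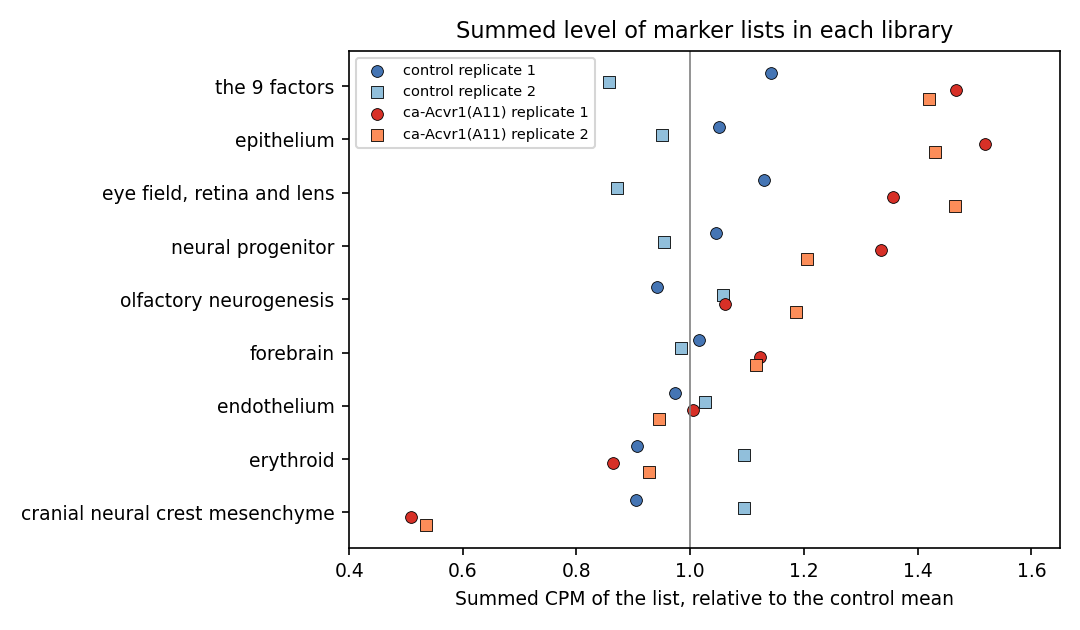
Summed CPM of each marker list in each library, divided by its mean in the control libraries, with circles for replicate 1 and squares for replicate 2. The 9 factors and the epithelium and eye lists lie higher in both ca-*Acvr1(A11)* libraries than in either control library. So do the neural progenitor, olfactory neurogenesis and forebrain lists, by smaller ratios. The mesenchyme list lies near 0.5 in both ca-*Acvr1(A11)* libraries.

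Genes used as forebrain markers were measured in every library, although several of them are also expressed elsewhere, such as *Dmrta2* in the olfactory placode and *Bcl11b* in facial tissue. Of 22 such genes 17 were analyzed, and 0 of 17 passed the test in either direction (limma). Over all genes tested the shares were 0.305% higher and 0.594% lower, so 0 calls do not set the list apart. At an unadjusted p under 0.05, 3 were higher and 1 lower, against 676 and 514 of all 12462 genes tested (limma). The log2 fold changes of the 17 ranged from −1.06 to 0.87, with 10 above 0, 7 below 0 and a median of 0.17. *Gsx1*, *Wnt8b*, *Wnt3a*, *Neurod6* and *Nkx2-4* were not analyzed here. The 3 most abundant were *Dmrta2* at 183, 161, 202 and 227 CPM, *Bcl11b* at 112, 141, 117 and 118 CPM and *Nr2e1* at 57.8, 55.1, 72.7 and 63.6 CPM in control replicates 1 and 2 and ca-*Acvr1(A11)* replicates 1 and 2. The sum of the list was 549 to 567 CPM in control and 622 to 626 CPM in ca-*Acvr1(A11)* libraries, a ratio of 1.12, against 1.44 for the 9 factors. The difference between these ratios was not tested, and single genes of the list moved further than its sum in both directions. *Dmrta2* and *Bcl11b* together made up from 51.0% to 55.6% of the sum, and its ratio was 1.06 without *Dmrta2*.

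Among 15 tested genes of neural progenitors, which brain and placode partly share, all 15 had a log2 fold change above 0 with a median of 0.30, and 1 passed the test (limma, 7 at an unadjusted p under 0.05). The sum of all 16 listed was 1670 and 1525 CPM in the control pair, against 2133 and 1925 CPM in the mutant pair. Its ratio of means was 1.27. The 3 most abundant, *Zic1*, *Hes5* and *Nes*, did not pass (log2 fold change 0.60, 0.30 and 0.18, adjusted p = 0.189, 0.481 and 0.786), although *Zic1* passed without control replicate 1 or ca-*Acvr1(A11)* replicate 2. Of the eye genes 8 of 16 were analyzed and 0 passed, with 2 higher and 0 lower at an unadjusted p under 0.05. *Six6*, a relative of *Six3* in the eye field, led this list at 21.0, 16.4, 30.7 and 31.4 CPM (adjusted p = 0.233, and 0.0472 without control replicate 1), followed by the pigment cell genes *Mitf* and *Dct* with group means from 5.66 to 13.4 CPM. *Tyr*, *Atoh7*, *Crx*, *Foxe3*, *Cryaa*, *Cryba1* and *Crygs* were among those not analyzed here. In the list for midbrain and hindbrain, *Fgf15*, a growth factor gene of the embryonic brain, rose from 54.5 ± 20.5 to 105 ± 3.01 CPM (SD, n = 2, log2 fold change 0.99, adjusted p = 0.0070), but not without control replicate 2 (adjusted p = 0.105). *Irx3* and *Pax2*, the other genes of that list with enough reads, did not pass (log2 fold change −0.51 and 1.04, adjusted p = 0.141 and 0.465, with *Irx3* at 0.0295 without control replicate 2), and *En1*, *En2*, *Pax5*, *Egr2*, *Hoxa2* and *Hoxb2* were among those not analyzed here.

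For the olfactory lineage, 13 of 14 factors of the olfactory and other placodes were tested and 0 passed (limma, with 3 higher and 0 lower at an unadjusted p under 0.05), with a median of 0.19. *Sox11* at 3639 to 4163 CPM dominated their sum and had a log2 fold change of −0.084, whereas *Pax6*, also a forebrain and eye gene, had 0.59 (adjusted p = 0.175, limma) and passed without control replicate 1. Without *Sox11* the sum was 506 to 511 CPM in control and 584 to 661 CPM in ca-*Acvr1(A11)* libraries. In the list for olfactory neurogenesis, with 16 genes tested, 12 were above 0 and 4 below 0, and the median was 0.15. At an unadjusted p under 0.05, 4 were higher and 2 lower (limma). Only *Ebf1* passed, and it fell (log2 fold change −0.999, adjusted p = 0.0102, limma). Without control replicate 2 its change was −0.73 and the call was lost. Of 9 genes of mature olfactory neurons, 4 were analyzed, and *Gnal* and *Gng8* were the only ones above a mean of 1 CPM.

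**Figure D4:**
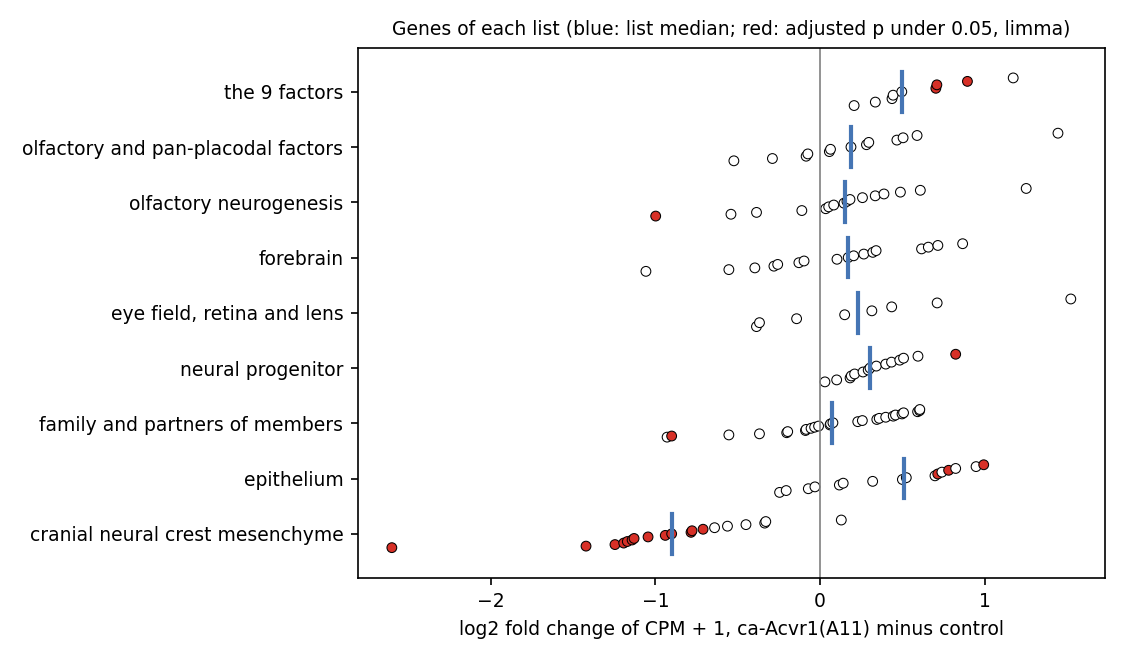
Log2 fold change of every tested gene of 9 lists, ca-*Acvr1(A11)* minus control, with the list median as a blue line and genes past an adjusted p of 0.05 in red. The median of the 9 factors (0.50) lies beside that of epithelium (0.51), and that of cranial neural crest mesenchyme is −0.90.

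The level of each factor was also expressed as a percentage of the summed level of a list, a step chosen after the values had been seen and given with no test. Relative to the epithelial sum, the 9 factors together were at 454% and 377% in control and 404% and 414% in ca-*Acvr1(A11)* libraries, a ratio of means of 0.984 with overlapping groups. *Sp8* stayed higher without overlap on this scale (ratio 1.28), as did *Rax* on its few reads. *Sox2*, *Sox3*, *Six3* and *Otx2* overlapped, and *Lhx2*, *Emx2* and *Meis1* were lower in both ca-*Acvr1(A11)* libraries (ratios 0.853, 0.769 and 0.929). Relative to the neural progenitor sum, *Sox2*, *Six3*, *Otx2* and *Sp8* were higher without overlap (ratios 1.12, 1.27, 1.28 and 1.49), and *Sox3*, *Lhx2*, *Emx2* and *Meis1* overlapped. Relative to the sum of the forebrain list, *Sox2*, *Six3*, *Otx2*, *Sp8* and *Meis1* were higher without overlap, with ratios from 1.22 for *Meis1* to 1.69 for *Sp8*. The part of epithelium, forebrain or mesenchyme in the levels of the 9 factors was not tested.

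**Figure D5:**
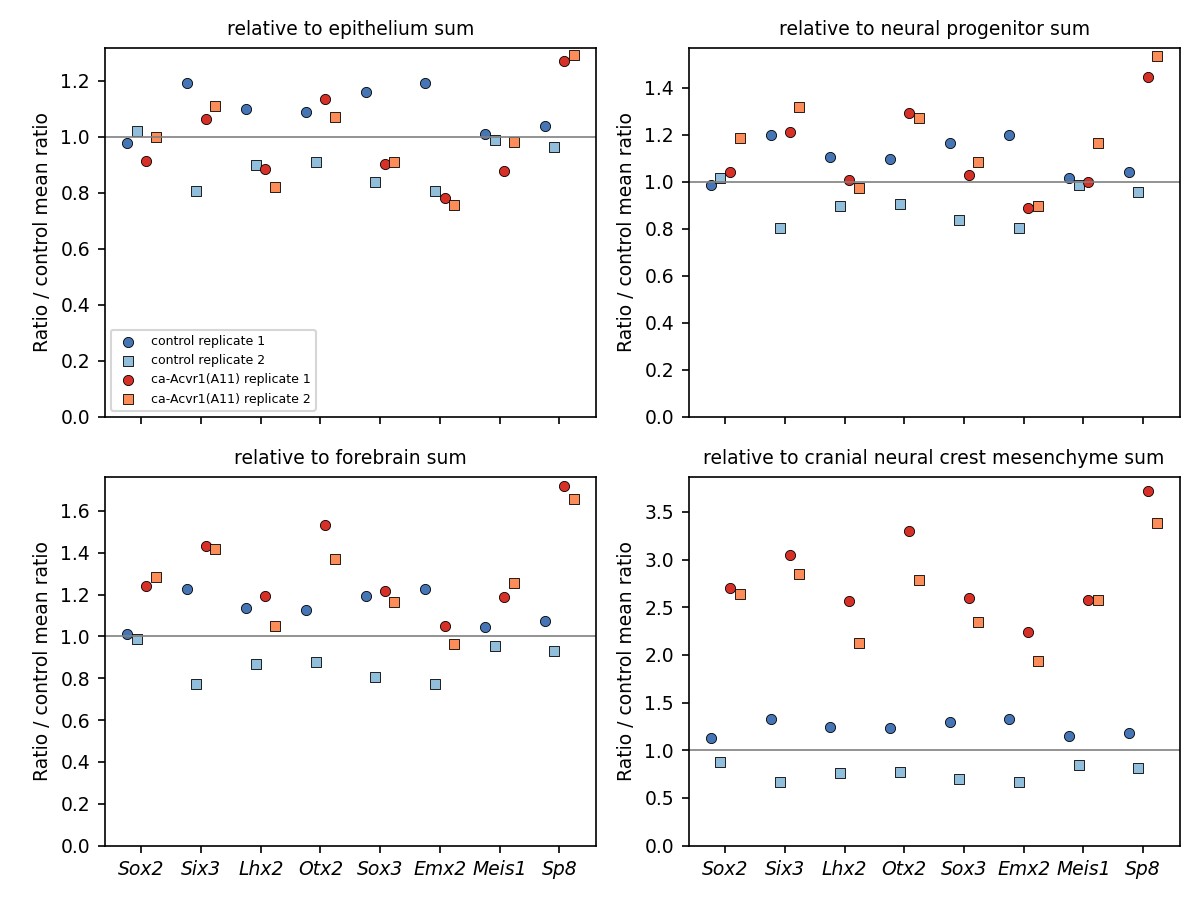
Level of 8 factors relative to the summed level of 4 marker lists, divided by the control mean of the same ratio, in each library; *Rax* is left out for its few reads. Relative to epithelium the groups overlap for *Sox2*, *Six3*, *Otx2* and *Sox3*, and *Sp8* lies above 1.2 in both ca-*Acvr1(A11)* libraries.

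Of 26 tested relatives and partners of the factors, 0 rose and 1 fell (6 higher and 2 lower at an unadjusted p under 0.05, limma), with a median of 0.071. *Six2*, a relative of *Six3* that is also in the mesenchyme list, fell from 130 ± 31.1 to 68.3 ± 3.29 CPM (SD, n = 2, log2 fold change −0.90, adjusted p = 0.0048, limma), but not without control replicate 2 (adjusted p = 0.0725). *Chd7* and *Meis2*, among the most abundant of this list, had changes of 0.46 and 0.44 on the log2 scale (adjusted p = 0.275 and 0.169), both of which passed without control replicate 1. *Tle2* was not analyzed here.

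Among 18 signals of the nasal pit and forebrain, 2 rose and 2 fell. *Aldh1a3*, which encodes an enzyme of retinoic acid synthesis, rose from 52.8 ± 9.95 to 103 ± 22.4 CPM (SD, n = 2, log2 fold change 0.95, adjusted p = 0.0063, limma), but not without ca-*Acvr1(A11)* replicate 1 (adjusted p = 0.168), and *Fgf15* was the other. *Rspo2*, a secreted activator of Wnt signaling, fell by 2.17 on the log2 scale (adjusted p = 0.000254). *Shh* was called lower as deposited (56.4, 47.8, 32.8 and 23.9 CPM, log2 fold change −0.87, adjusted p = 0.0383). Neither control value was a whole number of reads. Whole-read values lie 40 and 30 CPM below them, at 16.4 and 17.8 CPM, and with these the direction turned (log2 fold change 0.68, adjusted p = 0.306). *Sfrp1*, *Wnt5a* and *Sfrp2*, the most abundant, did not pass. *Pitx1*, a homeodomain factor of oral ectoderm and the pituitary, was called higher among 3 tested genes of oral ectoderm and Rathke's pouch (17.9, 17.3, 40.3 and 34.6 CPM, log2 fold change 1.04, adjusted p = 0.0171), and not without ca-*Acvr1(A11)* replicate 1 (adjusted p = 0.182). *Isl1*, the most abundant of these, did not pass (log2 fold change 0.34, adjusted p = 0.546).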

How the data were processed

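Bulk RNA-Seq of NP tissues at E11.5 gave 4 libraries, 2 a group by title. The authors made them with the QuantSeq 3′ kit and deposited CPM values, already scaled by library total, for 13577 genes. The submitters' processing notes name STAR, featureCounts 1.6.4, DESeq2 and mm10, with no role given.

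The smallest value above 0 in a library was taken as 1 read. This gave 1956831, 2252586, 2408827 and 2137027 reads for control replicates 1 and 2 and ca-*Acvr1(A11)* replicates 1 and 2. A value within 0.02 reads of a whole number was counted as whole. Of the values 99.87% to 99.98% a library were whole reads. For the other 43, a whole-read value a whole number of CPM away was searched within 500 CPM and found for 42. Not every whole number was tried, since larger shifts were searched in coarser steps. Counting intervals cover counting error only.

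Log2(CPM + 1) of the 12462 genes with a mean above 1 CPM was fitted with limma 3.58.1 (mean-variance trend, Benjamini-Hochberg, 0.05). An exact permutation test of 2 against 2 libraries cannot go below p = 0.333. Alternatives were pseudocounts of 0.1 and 0.5, no filter, at least 10 reads in every library, TMM and RLE scaling, edgeR 4.0.16, DESeq2 1.42.0 and limma-voom on the recovered reads, the nearest whole-read values, a replicate block, and each library left out. edgeR called 40 genes higher and 83 lower. The scripts were tested on simulated data. Software was R 4.3.3, matplotlib 3.10.9, scipy 1.17.1, pandas 2.3.3 and Python 3.11.15.

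The 9 factors and 17 other gene lists, written by hand, were chosen with earlier results of these data known. Named were the 9 factors, every gene of a list that limma called, and the 3 most abundant genes of 10 lists, apart from some that are not reported here. No gene was named for likeness, since 4 libraries are too few for a correlation. Loci are from GENCODE and upstream windows from RefSeq, both on GRCm38. No library was left out.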

Additional observations from a re-analysis of the deposited data

How the results depend on the processing

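Over 8 or 11 alternatives that kept all libraries and 4 that left out 1, the direction of a factor's change was kept in 131 of 132 values, and a call changed in 15. *Emx2* ranged from −0.14 to 0.56 (log2) when a library was left out. Factors called higher numbered 0 by DESeq2 and 0 to 6 without 1 library. All genes called higher numbered 7 by DESeq2, 97 with the replicate block and 31 to 240 without 1 library, and all genes called lower 26, 132 and 54 to 225. Other listed genes called numbered 0 higher and 9 lower by DESeq2, and 1 to 18 higher without 1 library. The titles give replicate numbers only, and whether libraries of the same number were paired is not known. The correlation of their deviations from the group means was 0.119 over 8354 genes. With 2 libraries a group it cannot decide this. The replicate block added *Sox2* to the called factors (adjusted p = 0.0431, limma), 4 in all, and, among the other genes named, *Pax6*, *Zic1* and *Irx3* (0.0307, 0.0056 and 0.0497). Of the 24 listed genes called, 8 were called with every library left out in turn. *Shh* turned to 0.72 by edgeR, 0.71 by DESeq2, 0.69 by limma-voom and 0.68 with the nearest whole-read values, where the recovered reads replace values that are not whole. Without 1 library, some uncalled genes changed sign: *Bcl11b* (−0.26 to 0.066), *Mitf* (−0.040 to 0.91), *Dct* (−0.78 to 0.49), *Nes* (−0.024 to 0.39) and *Sfrp1* (−0.31 to 0.24). *Mitf* stood at 0.44 (log2) with all libraries kept. With 1 library left, a group is assumed to vary like the other. The cause of the differences between tools was not tested. A gene near 1 CPM rests on 1 to 3 reads a library.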

Other observations

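Endothelial markers summed to 177 and 187 CPM in the control pair, against 183 and 172 CPM in the mutant pair, and 0 of 8 passed the test (limma, 0 at an unadjusted p under 0.05). Erythroid markers, led by the embryonic globin gene *Hbb-y*, summed to 7030 and 8488 CPM against 6707 and 7202 CPM, and 0 of 7 passed (0 at an unadjusted p under 0.05). Macrophage markers were scarce, at 29.6 and 35.1 CPM against 49.8 and 79.1 CPM in sum. *Mrc1*, a mannose receptor gene of macrophages, was called higher (4.60, 7.55, 15.0 and 18.3 CPM, log2 fold change 1.34, adjusted p = 0.0411, limma), and without control replicate 1, ca-*Acvr1(A11)* replicate 1 or ca-*Acvr1(A11)* replicate 2 it was not (adjusted p = 0.0801, 0.0736 and 0.307). *Sox10*, a factor of neural crest cells and their glia, was at 9.71 and 7.99 CPM against 2.08 and 3.28 CPM (log2 fold change −1.44, adjusted p = 0.0926). Muscle markers summed to less than 10 CPM in every library, and 0 of 4 passed (0 at an unadjusted p under 0.05).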
